A study of Mus musculus with 18 samples.

Results

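Pancreatic islets, the clusters of hormone-secreting cells within the pancreas, were compared between mice without exon 2 of Cdh13 (deleted) and mice with that exon floxed, at 14 weeks of age on chow. The comparison rests on 6 of the 18 RNA sequencing libraries of the study, namely the 3 deleted and the 3 floxed libraries that the labels place at 14 weeks on normal chow. The labels give the strain as C57BL/6 for both groups, and the design text calls the floxed mice wild type and the deleted mice knockout. The other 12 libraries hold both genotypes in 2 other settings (8-week-old mice fed chow, and 14-week-old mice fed a high-fat diet for the last 6 weeks), and they enter here to estimate the spread and to test whether a difference depended on age or diet. The labels do not name the Cre line, the tissue in which exon 2 was removed, or whether each library came from a separate animal, so every p-value measures only the spread between these samples. No group is labelled as carrying Cre without floxed alleles.

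Cdh13 encodes T-cadherin, a cadherin without a transmembrane or cytoplasmic part that is tethered to the outer cell surface by a lipid anchor. It binds the larger forms of adiponectin, a hormone released by fat cells, and is well known on blood vessel cells and muscle. Islets hold insulin-secreting beta cells, glucagon-secreting alpha cells and somatostatin-secreting delta cells, together with capillaries, pericytes and resident macrophages, all of which contribute RNA to a bulk library.

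The deleted exon is shown because it defines the 2 groups. In the mouse build mm10 (GENCODE vM21), Cdh13 lies on the plus strand of chromosome 8 from 118283733 to 119324921, and exon 2 is chr8:118505604-118505715, inside the coding sequence. Capitals mark exon 2, and lower case marks 30 bases of the neighbouring exons in the spliced transcript on each side.
Cdh13 exon 2: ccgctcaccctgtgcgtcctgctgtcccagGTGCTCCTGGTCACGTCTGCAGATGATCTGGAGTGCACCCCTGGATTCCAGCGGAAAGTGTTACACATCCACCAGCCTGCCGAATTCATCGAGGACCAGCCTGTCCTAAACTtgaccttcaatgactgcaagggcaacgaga
The exon is 112 bases long, which leaves a remainder of 1 when divided by 3, so a transcript that joins exon 1 to exon 3 changes its reading frame and meets a stop after 15 codons, against 714 codons in the full protein. Exon 2 makes up 2.96% of the 3785 bases of this transcript, so an FPKM value for Cdh13 (fragments per kilobase of transcript, scaled to the mapped fragments of a library) counts reads over 14 exons and does not measure exon 2 alone.

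Cdh13 transcripts were scarce in every library of both genotypes. The gene measured 1.63, 2.06 and 1.33 FPKM in the floxed libraries (replicates 1 to 3) and 0.691, 0.419 and 0.544 FPKM in the deleted libraries. All 3 deleted values lay below all 3 floxed values, and the deleted mean was 33.0% ± 6.28 (SE) of the floxed mean. The difference on the log2(FPKM + 1) scale was -0.78 (SE 0.17), with an adjusted p of 0.0674 from limma, a linear model with variances shared across genes, so the targeted gene did not pass the threshold of 0.05. A two-sided exact permutation test gave p = 0.1, the smallest that 20 splits of 3 against 3 allow. With sample quality weights the difference was -0.77 and passed (adjusted p = 0.0250, range over its alternatives 0.0250 to 0.344). In the main limma fit Cdh13 was at -0.51 at 8 weeks (adjusted p = 0.179). On the high-fat diet it was at -0.69 and passed (adjusted p = 0.0107). Neither interaction passed (adjusted p = 0.829 for age and 0.903 for diet).

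Between 11558 and 11787 genes reached 1 FPKM in each of the 6 libraries, and summed FPKM ran from 903346 to 1078671. Sequencing depth in fragments is not known for these libraries. The insulin gene Ins2 held 40.2% to 43.8% of the summed FPKM. Replicate 3 of the deleted group stood apart on the first principal component, at 22.4 against -10.1 to 5.18 for the other 5 libraries, although its correlation with them across genes was still 0.985 to 0.989. Markers of acinar cells, the enzyme-secreting cells around the islets, summed to 7087, 3151 and 1407 FPKM in the floxed libraries and to 2085, 3918 and 3064 FPKM in the deleted libraries, so their spread was within the genotypes and the groups overlapped.

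Few genes passed. Of 12234 genes tested, 14 were called at an adjusted p below 0.05 (0.114%), 8 higher in deleted islets (0.0654%) and 6 lower (0.049%). At an unadjusted p below 0.05 there were 976 genes (7.98%), 352 higher (2.88%) and 624 lower (5.1%). All 3 deleted values lay above all 3 floxed values for 6.25% of the tested genes and below them for 7.36%, and counts of list members without overlap are to be read against these shares. Members of a list were measured in the same 6 libraries, so counts of members are not counts of independent observations. Every list was chosen with earlier results of these data known. The 8 genes that rose were Star, Rgn, Entpd2, Nupr1, Adora2b, Degs2, Gpt2 and Ckb, and the 6 that fell were Ide, Fgfbp3, Lrp3, Rgs1, Ppap2a and Ctss. Without replicate 3 of the deleted group, 7 genes were called, of which 6 were among the 14 (Ide, Star, Adora2b, Nupr1, Rgn and Ckb). Of the 14, Ide and Star alone were called in each of the 15 alternatives run, and they were the 2 genes called when the model was fitted on the 6 libraries alone.

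**Figure D1:**
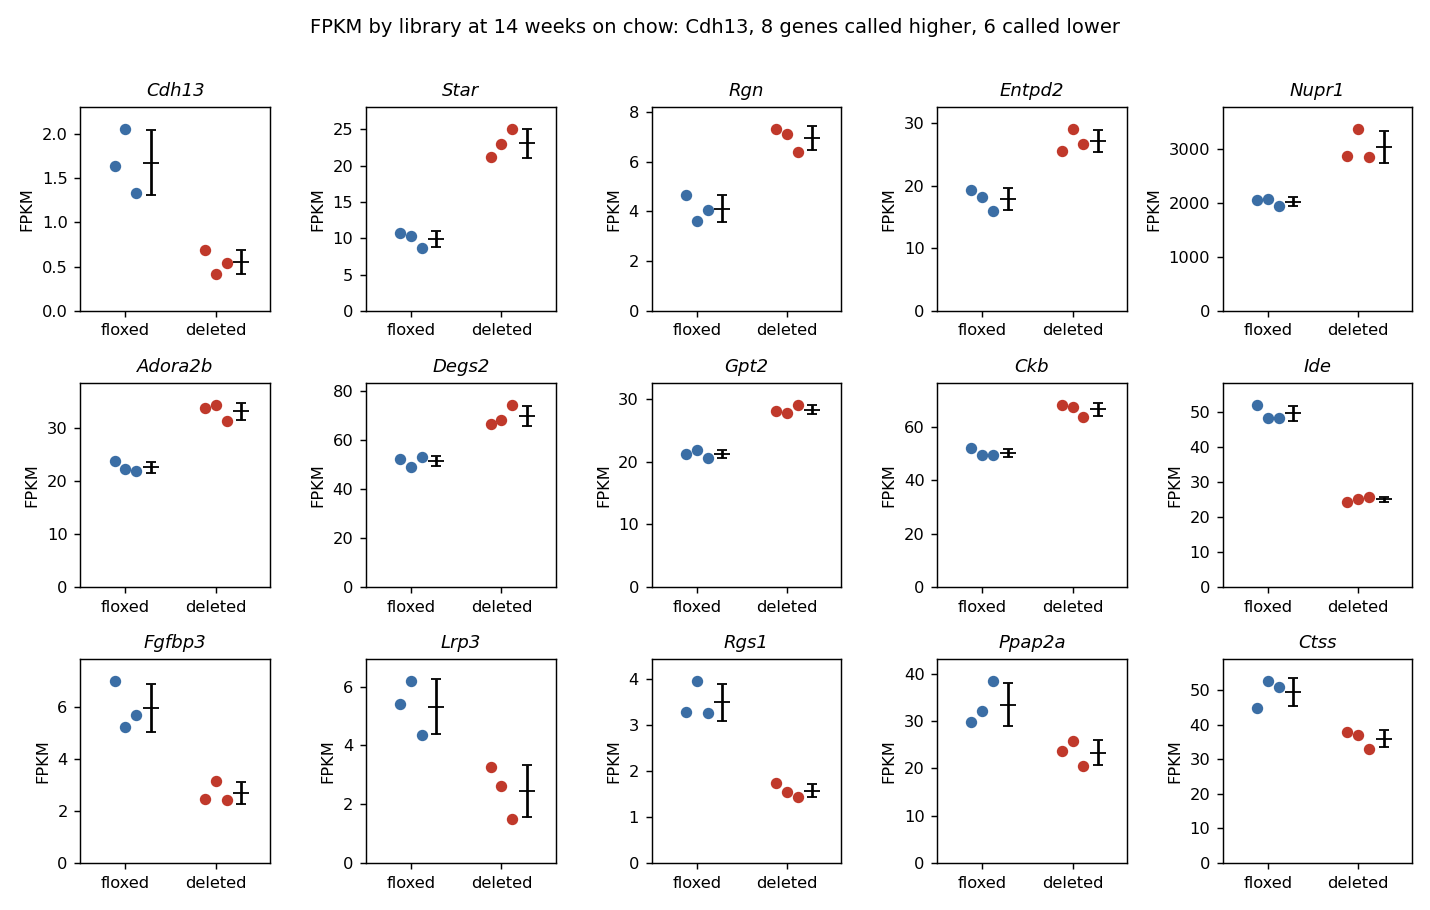
FPKM of Cdh13 and of the 14 called genes in each library of 14 weeks on chow (y axis, linear from 0), floxed in blue and deleted in red, with points in the order of replicates 1 to 3 and the black bar and whiskers giving the mean and SD of 3 libraries. In every panel the groups do not overlap; Star runs from 8.62 to 10.7 in floxed and from 21.2 to 25.1 in deleted islets, and Ide from 48.4 to 52.1 and from 24.5 to 25.7.

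Ide had the smallest p of all genes. It encodes the insulin-degrading enzyme, a zinc metalloprotease that cleaves insulin, glucagon and other short peptides. In floxed islets it measured 52.1, 48.5 and 48.4 FPKM, and in deleted islets 24.5, 25.1 and 25.7 FPKM. The replicates of each genotype lay within a few FPKM of each other and the genotypes were far apart, with deleted islets at 50.5% ± 1.45 (SE) of the floxed level. Ide fell by 0.96 on the log2 scale (SE 0.06, limma adjusted p = 1.22e-08), and its difference was -0.87 at 8 weeks and -0.97 on the high-fat diet, with neither interaction passing (adjusted p = 0.836 for age and 0.965 for diet).

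Fgfbp3, which encodes a secreted carrier of fibroblast growth factors, lies near Ide on chromosome 19 and fell as well. It measured 6.99, 5.20 and 5.67 FPKM in floxed and 2.46, 3.16 and 2.40 FPKM in deleted islets. Deleted islets held 44.9% ± 5.75 of the floxed FPKM (log2 difference -0.92, SE 0.16, limma adjusted p = 0.0226), and at 8 weeks and on the high-fat diet the differences were -1.26 and -0.87. Fgfbp3 lost its call in 7 of 14 alternatives, namely with no filter, on the 6 libraries alone and with any library but deleted replicate 2 left out (adjusted p up to 0.155). In mm10, Fgfbp3 spans 36917550 to 36919615 and Ide 37268743 to 37337852.

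3 tested genes lie between them. Btaf1, a regulator of TATA-binding protein, was below in every deleted library, with 7.63, 7.91 and 8.11 FPKM in floxed and 5.12, 4.60 and 6.33 FPKM in deleted islets (log2 difference -0.49, adjusted p = 0.0674). The ubiquitin ligase gene March5 was at 0.02 (adjusted p = 0.998) and the translational regulator Cpeb3 at -0.01, and their groups overlapped. Btaf1 passed in 3 of its 15 alternatives, among them the fit without replicate 3 of the deleted group (adjusted p = 0.0494). Around Cdh13 itself, a window of 1 Mb on each side chosen after values were seen held 19 tested genes, of which 0 were called. Their smallest adjusted p was 0.230, 2 lay lower and 1 higher without overlap (7.36% and 6.25% of all tested genes), and their median difference was 0.07.

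Star had the largest rise among called genes. It encodes the steroidogenic acute regulatory protein, which carries cholesterol into mitochondria as the rate-limiting step of steroid hormone synthesis. In floxed islets Star measured 10.7, 10.3 and 8.62 FPKM, and in deleted islets 21.2, 23.0 and 25.1 FPKM. The lowest deleted library lay far above the highest floxed library, and the deleted mean was 234% ± 18.9 (SE) of the floxed mean. The log2 difference was 1.15 (SE 0.11, limma adjusted p = 1.43e-05).

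No other gene of the steroid and mitochondrial cholesterol import list was called. Of its 29 genes 18 were tested, 1 was called, 2 lay higher and 3 lower without overlap (6.25% and 7.36% of all tested genes), and the median difference was -0.01, against 0.00 over all tested genes. Stard5, which encodes a related cytosolic cholesterol carrier, was at 0.18 (adjusted p = 0.382) and Fdxr, the ferredoxin reductase that feeds electrons to mitochondrial P450 enzymes, at -0.31 (adjusted p = 0.671). Cyp11a1, the enzyme that starts steroid synthesis from cholesterol, and Nr5a1, its nuclear receptor regulator, were listed at 0 in all 6 libraries. In the list for cholesterol synthesis, uptake and export, 0 of 32 tested genes were called, 1 lay higher and 1 lower without overlap, and the median was 0.00.

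Nupr1 was the most abundant of the called genes. It encodes a small stress-induced nuclear protein that is a known target of ATF4, the transcription factor of the integrated stress response. It measured 2058, 2076 and 1934 FPKM in floxed and 2868, 3369 and 2852 FPKM in deleted islets. Every deleted library exceeded every floxed one by a margin wider than the range of the floxed group, and the deleted mean was 150% ± 9.02 (SE) of the floxed mean (log2 difference 0.58, SE 0.09, limma adjusted p = 0.0182). Nupr1 lost its call in 5 of 15 alternatives, namely quantile normalization, the 6 libraries alone, and without floxed replicate 2, floxed replicate 3 or deleted replicate 2 (adjusted p up to 0.0799). Gpt2, the mitochondrial alanine transaminase and another known ATF4 target, measured 21.3, 21.9 and 20.6 FPKM in floxed and 28.2, 27.7 and 29.1 FPKM in deleted islets. It rose to 133% ± 3.13 of the floxed level (log2 difference 0.40, adjusted p = 0.0393), and it failed in 9 of its 15 alternatives, 6 of which left out 1 library each.

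The promoter of Nupr1 is printed because the motif search below matched it and because this gene carried the highest level among the called genes. The 250 bases before its start site, from RefSeq (GRCm38.p6), are chr7:126625471-126625720 on the minus strand, and the capitals mark a match, on the opposite strand, to TGATGNAA, the composite element bound by C/EBP and ATF family proteins.
Nupr1 promoter: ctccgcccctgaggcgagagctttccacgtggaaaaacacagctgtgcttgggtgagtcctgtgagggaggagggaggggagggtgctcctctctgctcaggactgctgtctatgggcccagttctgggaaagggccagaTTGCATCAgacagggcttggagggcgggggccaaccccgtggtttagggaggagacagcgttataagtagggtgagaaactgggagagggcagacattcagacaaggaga
The match starts 110 bases before the start site. That site is the RefSeq start, and the span of Nupr1 given below from GENCODE vM21 extends further upstream. Of all 32851 mouse promoters in the table, 3.452% held this motif on either strand. Of the 14 called genes, 10 had a promoter in the table, and among these Nupr1 alone held it. The promoters of Star, Rgn, Ppap2a and Rgs1 were missing there and were not searched for any motif. The full cAMP response element TGACGTCA, in 1.546% of all promoters, and the steroidogenic factor site CAAGGTCA, in 1.333%, matched none of the 10. The E-box CACGTG, in 6.021% of all promoters, matched Nupr1 and Lrp3, and TGACG, the shorter form of the cAMP response element, in 17.77% and contained in the full element, matched Lrp3. A match describes letters in the sequence and is not evidence of binding.

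Across the list for ATF4 and the integrated stress response, 2 of 34 tested genes were called, both higher (Nupr1 and Gpt2), against 0.0654% of all tested genes. This list was chosen with earlier results of these data known, so its 2 calls add no separate support. The deleted group lay above the floxed group without overlap for 7 and below for 0, against 6.25% above and 7.36% below over all tested genes. The median was 0.06, and 28 of the 34 differences were above zero. Phgdh, the first enzyme of serine synthesis, measured 65.7, 64.2 and 63.9 FPKM in floxed and 79.6, 80.1 and 92.4 FPKM in deleted islets (log2 difference 0.37, adjusted p = 0.0674). Ddit3, which encodes the stress transcription factor CHOP, measured 511, 529 and 505 FPKM in floxed and 648, 669 and 639 FPKM in deleted islets (0.34, adjusted p = 0.207). Both were above without overlap and neither passed. Among endoplasmic reticulum chaperones and other unfolded protein response genes, 0 of 25 were called, 4 lay above and 0 below without overlap, and the median was 0.06; the central chaperone Hspa5 was at 0.11 (adjusted p = 0.709).

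A pair of called genes belongs to extracellular nucleotide and adenosine signalling. Entpd2 encodes a surface enzyme that hydrolyses extracellular ATP, and Adora2b encodes the low-affinity adenosine receptor that raises cyclic AMP. Adora2b measured 23.7, 22.2 and 21.7 FPKM in floxed and 33.7, 34.3 and 31.2 FPKM in deleted islets. It rose to 147% ± 5.70 (SE) of the floxed level (log2 difference 0.53, SE 0.07, limma adjusted p = 0.00140), and it lost its call in 1 of 15 alternatives, the fit on the 6 libraries alone (adjusted p = 0.0522). Entpd2 measured 19.3, 18.2 and 15.9 FPKM in floxed and 25.6, 29.1 and 26.7 FPKM in deleted islets, and rose to 152% ± 10.4 of the floxed level (0.58, SE 0.10, adjusted p = 0.0220). Entpd2 lost its call in 5 of 15 alternatives, on the 6 libraries alone and without floxed replicate 2 or 3 or deleted replicate 2 or 3 (adjusted p up to 0.0832). For both genes the lowest deleted value exceeded the highest floxed value by more than the range of the floxed libraries.

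Over the whole list for extracellular nucleotides and adenosine, 2 of 18 tested genes were called, both higher (0.0654% of all tested genes), and the median difference was 0.15. The 2 were Adora2b and Entpd2. The list was chosen with earlier results of these data known, so its calls add no separate support. The deleted group lay above without overlap for 7 genes and below for 2, against 6.25% above and 7.36% below over all tested genes. Enpp2, which encodes autotaxin, the secreted enzyme that makes lysophosphatidic acid, measured 52.5, 49.4 and 48.0 FPKM in floxed and 63.1, 62.8 and 64.0 FPKM in deleted islets, without overlap (0.34, adjusted p = 0.0551). The ectonucleotidase gene Entpd3, the most abundant of its family here, was at 0.17 (adjusted p = 0.252). With no filter on low values the median of the list was 0.0045, and without floxed replicate 3 it was 0.071.

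The other called genes that rose are enzymes and a calcium regulator. Rgn, which encodes regucalcin, a calcium-binding lactonase, measured 4.67, 3.62 and 4.04 FPKM in floxed and 7.31, 7.11 and 6.39 FPKM in deleted islets (169% ± 14.2 of floxed, SE; log2 difference 0.64, adjusted p = 0.0226). Degs2, a desaturase and hydroxylase that makes phytoceramides, measured 52.4, 49.1 and 53.0 FPKM in floxed and 66.9, 68.1 and 74.5 FPKM in deleted islets (136% ± 5.61; 0.43, adjusted p = 0.0226). Ckb, the brain-type creatine kinase that buffers ATP, measured 52.1, 49.4 and 49.6 FPKM in floxed and 68.4, 67.7 and 63.9 FPKM in deleted islets (132% ± 3.58; 0.40, adjusted p = 0.0226). None of the 3 overlapped between groups. On the 6 libraries alone and with 1 library left out, Rgn and Ckb each lost their call in 5 of 15 alternatives (floxed replicates 2 and 3, deleted replicates 1 and 2) and Degs2 in 6 (any library but deleted replicate 1), with adjusted p up to 0.163 for each.

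**Figure D2:**
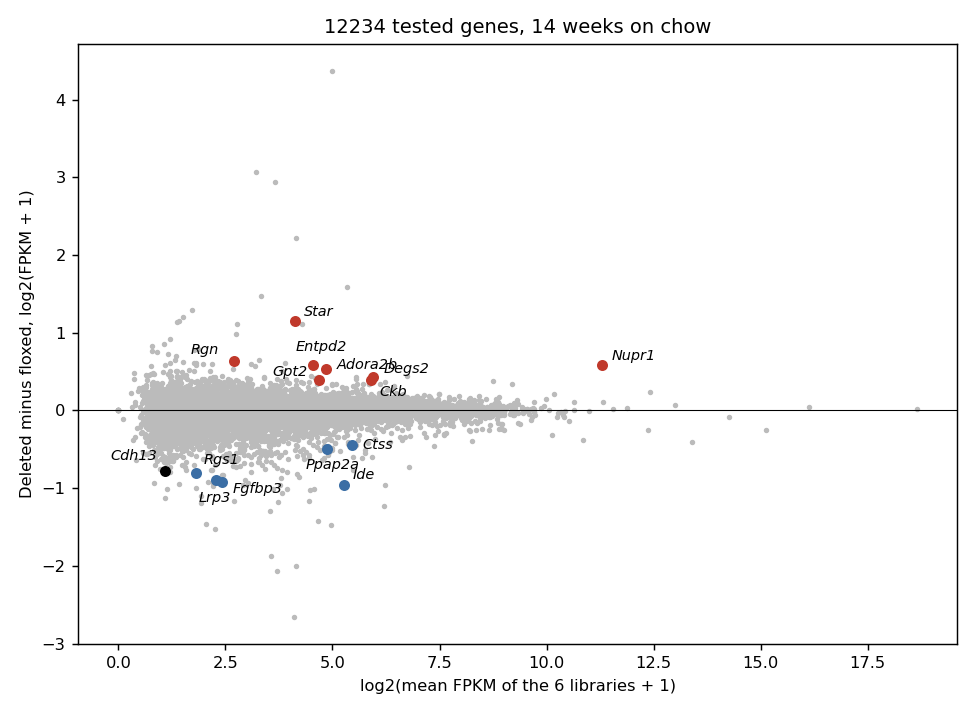
Difference between deleted and floxed islets on the log2(FPKM + 1) scale (y axis) against log2 of the mean FPKM of the 6 libraries plus 1 (x axis) for 12234 tested genes in grey, with called genes in red (higher) and blue (lower) and Cdh13 in black. The called genes lie between -0.96 (Ide) and 1.15 (Star), and of the 35 genes beyond 1 in either direction Star alone was called.

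Lrp3, Rgs1, Ppap2a and Ctss made up the rest of the genes that fell. Lrp3, a member of the LDL receptor family, measured 5.42, 6.2 and 4.35 FPKM in floxed and 3.25, 2.61 and 1.5 FPKM in deleted islets (46.1% ± 10.7 of floxed, SE; log2 difference -0.90, adjusted p = 0.0340). Ppap2a, now named Plpp1, encodes a surface phosphatase that breaks down lysophosphatidic acid, the product of autotaxin. It measured 29.7, 32.0 and 38.4 FPKM in floxed and 23.6, 25.8 and 20.4 FPKM in deleted islets (69.8% ± 7.21; -0.50, adjusted p = 0.0311). Lrp3 was lowest in replicate 3 of the deleted group, without which its difference was -0.68 and did not pass (adjusted p = 0.196). In all, Lrp3 lost its call in 6 of 15 alternatives (no filter, the 6 libraries alone, and without floxed replicate 1 or 2 or deleted replicate 2 or 3) and Ppap2a in 7 (no filter, the 6 libraries alone, the replicate block, and without floxed replicate 2 or 3 or deleted replicate 1 or 3).

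Ctss and Rgs1 are genes of immune cells in most tissues. Ctss encodes cathepsin S, the lysosomal protease that prepares MHC class II molecules in antigen-presenting cells, and Rgs1 encodes a regulator that ends chemokine receptor signalling in leukocytes. Ctss measured 45.0, 52.7 and 50.8 FPKM in floxed and 37.8, 37.0 and 33.1 FPKM in deleted islets (72.6% ± 4.46 of floxed, SE; log2 difference -0.45, adjusted p = 0.0393). Rgs1 measured 3.27, 3.96 and 3.26 FPKM in floxed and 1.73, 1.55 and 1.44 FPKM in deleted islets (45.0% ± 3.82; -0.80, adjusted p = 0.0393). Neither gene overlapped between genotypes. Ctss lost its call in 8 of 15 alternatives, among them the replicate block and leaving out any library but floxed replicate 1, and Rgs1 in 10 of 14, among them the replicate block and leaving out any of the 6 libraries (adjusted p up to 0.233 for each).

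Macrophage markers as a whole lay lower alongside these genes. Of 18 tested markers 17 were below zero, 11 lay below the floxed group without overlap and 0 above (against 6.25% above and 7.36% below over all tested genes), and 1 was called, which is Ctss itself. Their median difference was -0.37, and none of the list was at 0 in all 6 libraries. The summed marker level was 481, 531 and 548 FPKM in floxed and 460, 441 and 375 FPKM in deleted islets, without overlap. Mpeg1, the macrophage pore-forming protein, measured 4.70, 5.38 and 5.08 FPKM in floxed and 1.95, 3.26 and 1.33 FPKM in deleted islets (log2 difference -0.97, adjusted p = 0.0674), and C1qb, a subunit of complement C1q, was at -0.45 (adjusted p = 0.101). Rgs1 was listed with lymphocyte markers and not with these. Of 6 tested lymphocyte markers 2 were above zero and 3 below, and their median was -0.06. Of these 6, 2 lay below without overlap and 0 above, and 1 was called, Rgs1 itself. The part that a change in macrophage RNA had in the results for Ctss and Rgs1 was not tested. In these bulk libraries fewer cells of a type and less RNA per cell cannot be told apart.

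MHC class II genes, which present antigen on macrophages and related cells, lay lower too. None of 6 tested genes was called, 5 were below without overlap (7.36% of all tested genes), and the median was -0.35. H2-Aa measured 26.7, 31.5 and 30.6 FPKM in floxed and 22, 22 and 17.9 FPKM in deleted islets (log2 difference -0.51, adjusted p = 0.0582). Cd74, the invariant chain and the most abundant of the list, was at -0.33 (adjusted p = 0.130). The summed level of the list was 204 to 226 FPKM in floxed and 158 to 179 FPKM in deleted libraries.

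Among lysosomal cathepsins, Ctss was the only called gene of 14 tested, and the median of the list was -0.06. Ctsc, which activates the serine proteases of immune cells, measured 15, 17.8 and 21.3 FPKM in floxed and 12.1, 10.9 and 10.8 FPKM in deleted islets, without overlap (-0.63, adjusted p = 0.0551). Ctso lay above without overlap at 0.13 (adjusted p = 0.480). Of the 14, 5 lay below and 1 above without overlap (7.36% and 6.25% of all tested genes), and 8 differences were below zero and 6 above.

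Endothelial markers were lower as a group without a single call. All 15 tested markers were below zero, and 11 lay below without overlap, against 7.36% of all tested genes. An unadjusted limma p below 0.05 was found for 11, against 5.1% of all tested genes lower at that threshold. The median difference was -0.34, and -0.28 without replicate 3 of the deleted group. Their sum was 251 to 258 FPKM in floxed and 185 to 210 FPKM in deleted libraries. Esam, an endothelial adhesion molecule, measured 32.7, 31.7 and 32.2 FPKM in floxed and 24.7, 24.2 and 25.5 FPKM in deleted islets (-0.36, adjusted p = 0.149). The endothelial transcription factor gene Ets1 was at -0.51 (adjusted p = 0.0762), and Pecam1, which encodes CD31, at -0.35 (adjusted p = 0.255).

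Pericyte and fibroblast markers had a median of -0.41 over 11 tested genes, with 0 called and 4 below without overlap (7.36% of all tested genes). Their sums overlapped, with 63.2 to 99.3 FPKM in floxed and 42.3 to 70.8 FPKM in deleted libraries. The pericyte receptor gene Pdgfrb measured 6.03, 7.04 and 5.18 FPKM in floxed and 4.71, 2.57 and 3.58 FPKM in deleted islets (-0.63, adjusted p = 0.236). The median was -0.28 without deleted replicate 3 and -0.17 without floxed replicate 2, whose summed marker level was the highest of the 6.

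**Figure D3:**
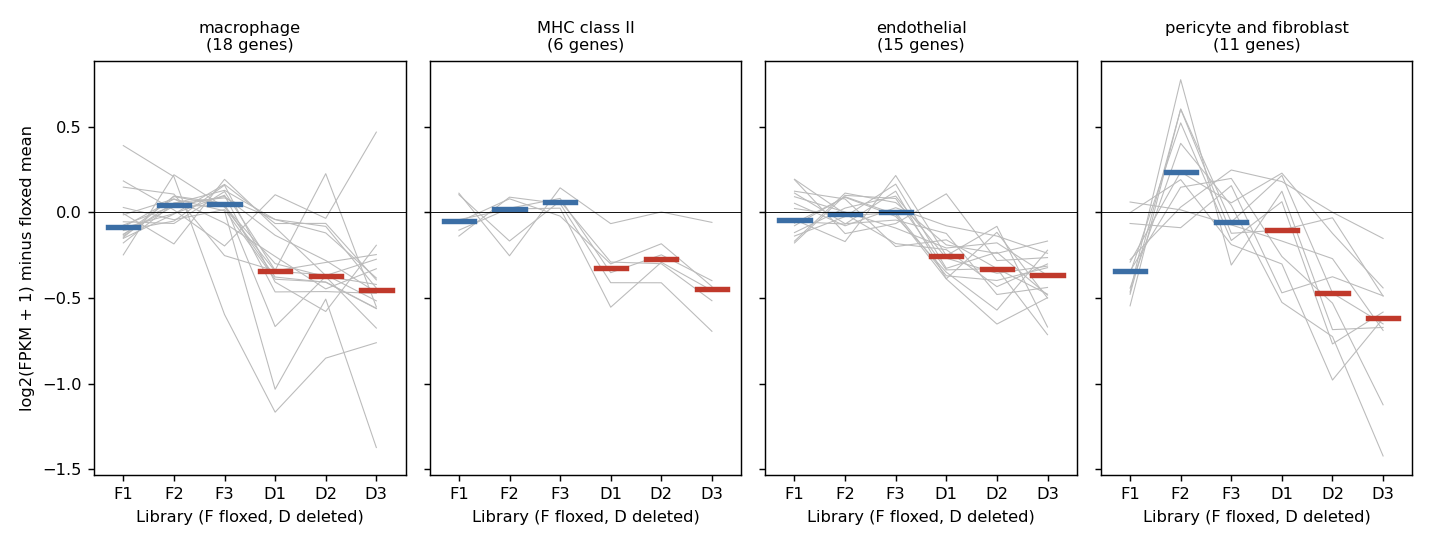
Marker genes in each library as log2(FPKM + 1) minus the floxed mean of the same gene (y axis), with 1 grey line per gene joining its values and the thick bars giving the median in floxed (F1 to F3, blue) and deleted (D1 to D3, red) libraries. For macrophage (18 genes), MHC class II (6) and endothelial (15) markers the medians of all 3 deleted libraries lie below those of all 3 floxed libraries, while pericyte and fibroblast medians (11) overlap because F1 lies low.

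Inflammatory genes and interferon genes gave no call. In the list of inflammatory cytokines, chemokines and NF-kB genes, 0 of 22 were called, 4 lay below and 2 above without overlap (against 6.25% above and 7.36% below over all tested genes), and the median was -0.27, or -0.12 without deleted replicate 3 and -0.13 without floxed replicate 3. In the type I interferon list, 0 of 18 were called, 3 lay below without overlap, and the median was -0.13. With 1 library left out it ran from -0.26 (without floxed replicate 1) to -0.012 (without floxed replicate 2). Ifit1, an interferon-induced sensor of foreign RNA, measured 6.23, 10.3 and 4.70 FPKM in floxed and 3.14, 3.84 and 4.2 FPKM in deleted islets (-0.72, adjusted p = 0.122), so floxed replicate 2 was the highest of the 6.

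No gene for an islet hormone passed the test. The differences were -0.08 for Ins1 (adjusted p = 0.962) and 0.02 for Ins2, and the groups overlapped for both. Gcg, which encodes glucagon, measured 40581, 37346 and 38385 FPKM in floxed and 36545, 30919 and 30702 FPKM in deleted islets, without overlap (-0.25, adjusted p = 0.643). Sst, which encodes somatostatin, measured 1885, 2031 and 2375 FPKM in floxed and 1735, 1759 and 1349 FPKM in deleted islets, again without overlap (-0.38, adjusted p = 0.157). Ppy, the pancreatic polypeptide gene, ranged from 4321 to 16598 FPKM within the deleted group alone.

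Beta cell identity genes centred on zero. None of 28 was called, 2 lay above and 2 below without overlap, near the shares of all tested genes (6.25% and 7.36%), and their differences ran from -0.28 to 0.25 with a median of -0.03. Ucn3, a marker of mature beta cells, measured 232, 228 and 224 FPKM in floxed and 205, 220 and 207 FPKM in deleted islets (-0.12, adjusted p = 0.718). The potassium channel gene Kcnj11 lay on the other side at 0.25 (adjusted p = 0.516). Alpha cell markers had a median of -0.23 over 7 tested genes, with 0 called, 3 below and 1 above without overlap (Gc, at 0.18, named after its value was seen). Without floxed replicate 1 or deleted replicate 3 their median was -0.15. Delta and PP cell markers were all below zero (6 of 6), with 0 called and a median of -0.19, or -0.068 without replicate 3 of the deleted group. Acinar markers had 0 called of 23, none separated between groups, and a median of -0.10 that ran from -0.77 without floxed replicate 3 to 0.48 without floxed replicate 1.

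Glycolytic genes lay lower as a group. None of 18 was called, 10 were below without overlap and 0 above (against 6.25% above and 7.36% below over all tested genes), and the median was -0.25. Aldoa, the muscle-type aldolase, measured 1259, 1121 and 1350 FPKM in floxed and 951, 1005 and 1021 FPKM in deleted islets (-0.32, adjusted p = 0.271). Ldha, the lactate dehydrogenase subunit that beta cells keep low, measured 42.6, 53.9 and 62.5 FPKM in floxed and 41.1, 35.6 and 27.1 FPKM in deleted islets (-0.60, adjusted p = 0.375). The list had medians of -0.23 at 8 weeks and -0.39 on the high-fat diet, with 1 member called lower at 8 weeks, and 8 called lower and 1 higher on the high-fat diet. Over all tested genes 0.548% were called in either direction at 8 weeks and 10.7% on the high-fat diet.

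The genes nearest to T-cadherin in function showed no call. Among cadherins and catenins 0 of 16 tested genes were called, 1 lay above without overlap (6.25% of all tested genes), and the median was 0.01. Among adiponectin receptors and their effectors 0 of 16 were called, 3 lay below without overlap (7.36% of all tested genes), and the median was -0.03. Of the classical receptors, Adipor1 was at -0.05 (adjusted p = 0.947) and Adipor2 at 0.19 (adjusted p = 0.825). Acer2, an alkaline ceramidase, was at -0.32 (adjusted p = 0.611), and Sirt1, a deacetylase in the same list, at -0.43 (adjusted p = 0.600).

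**Figure D4:**
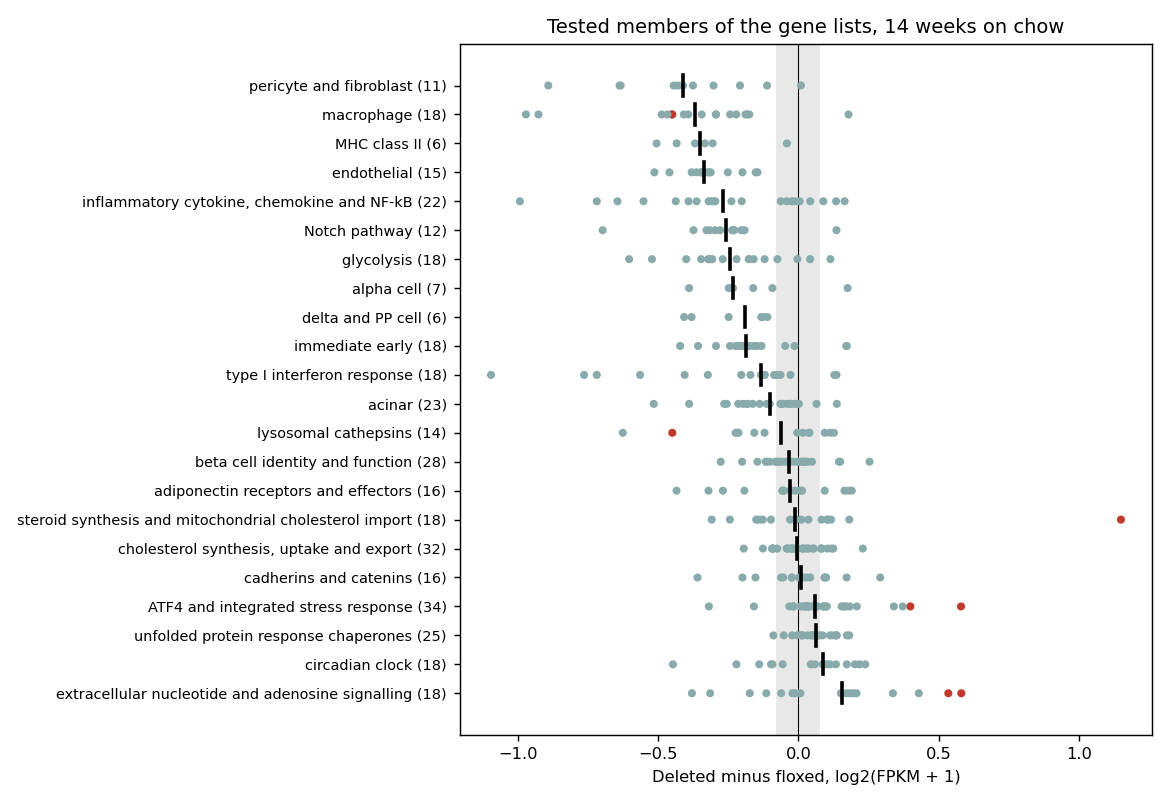
Differences between deleted and floxed islets on the log2(FPKM + 1) scale (x axis) for the tested members of each gene list (1 line per list, with the number of tested members), called genes in red, with a black bar at each list's median and a grey band over the interquartile range of all tested genes. Pericyte, macrophage, MHC class II and endothelial lists have medians between -0.41 and -0.34, and the nucleotide and adenosine list 0.15.

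The 10 uncalled genes with the smallest p among those without overlap had adjusted p between 0.0519 and 0.0582. Besides Enpp2, Ctsc and H2-Aa they were Cryba2, Rcor1, Snx25, H2-Q9, Ctla2a, 1700086L19Rik and Abhd6. Cryba2, a crystallin gene expressed in endocrine cells, measured 36.2, 36.7 and 39.1 FPKM in floxed and 25.9, 28.4 and 28.8 FPKM in deleted islets (-0.42), and it was called lower at 8 weeks (-0.52, adjusted p = 0.00530) and on the high-fat diet (-0.47, adjusted p = 9.93e-04). Rcor1, a corepressor that works with REST, and Snx25, a sorting nexin, were at -0.90 and -0.83. Abhd6, a lipase that breaks down monoacylglycerol, was at 0.34. The MHC class I gene H2-Q9 was at -1.12 on 1.89 FPKM in floxed islets, and it belongs to a family of near-identical copies between which reads may have been split, so its value is uncertain.

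The interaction of genotype with age passed for 3 of the 14 called genes, 1 of which kept it in every alternative run. The interaction of genotype with age, taken as the difference at 14 weeks on chow minus that at 8 weeks, was called for 24 genes in all (0.196%). Ppap2a was lower in deleted islets at 14 weeks (-0.50) and higher at 8 weeks (0.44, adjusted p = 0.0337), and its interaction had an adjusted p of 0.00323 and passed in all 14 of its alternatives. Its floxed mean was 21.9 ± 1.33 FPKM (SD, n = 3) at 8 weeks and 33.4 ± 4.53 FPKM at 14 weeks, while its deleted mean was 30.1 ± 1.6 and 23.3 ± 2.72 FPKM. Ctss was at 0.18 at 8 weeks (interaction adjusted p = 0.0428), with a floxed mean of 24.1 ± 1.4 FPKM then and 49.5 ± 4.01 FPKM at 14 weeks. Entpd2 was at -0.10 at 8 weeks (interaction adjusted p = 0.0471). The interaction lost its call in 5 of 14 alternatives for Ctss, among them the replicate block, and in 7 of 14 for Entpd2, among them each fit with 1 library left out except that without floxed replicate 1.

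The macrophage, MHC class II and endothelial lists had medians of 0.09, 0.19 and 0.15 at 8 weeks, on the other side of zero from 14 weeks. On the high-fat diet their medians were -0.14, -0.39 and -0.48, and 10 of 15 endothelial markers were called lower there, where 10.7% of all tested genes were called in either direction. Of these lists, Ctss and H2-Aa were called for the interaction with age. The change of a list's median between ages was not tested.

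Diet changed the genotype difference for 5 of the 14, namely Star, Nupr1, Degs2, Ckb and Lrp3. The interaction with diet, tested as the difference on chow minus that on the high-fat diet at 14 weeks, was called for 432 genes (3.53%). Nupr1 had a floxed mean of 2023 ± 77.2 FPKM and a deleted mean of 3030 ± 294 FPKM on chow (SD, n = 3), against 4777 ± 115 and 2350 ± 81.9 FPKM on the high-fat diet. So it was higher in deleted islets on chow (0.58) and lower on the high-fat diet (-1.02), with an interaction adjusted p of 1.11e-06. Degs2 did likewise, at 0.43 and -0.60 (interaction adjusted p = 1.50e-05).

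Star differed on chow and not detectably on the high-fat diet, where both genotypes were high. Its floxed mean was 9.87 ± 1.10 FPKM on chow and 29.0 ± 2.68 FPKM on the high-fat diet, and its deleted mean was 23.1 ± 1.96 and 31.4 ± 5.60 FPKM (SD, n = 3 each). The interaction had an adjusted p of 8.17e-04. At 8 weeks Star was also higher in deleted islets, at 18.5 ± 1.04 against 12.1 ± 1.02 FPKM (log2 difference 0.58, adjusted p = 0.0204), and the interaction with age did not pass (adjusted p = 0.160). Ckb was at -0.06 and Lrp3 at 0.10 on the high-fat diet, with interaction adjusted p-values of 0.0106 and 0.0217. The interaction for Lrp3 lost its call in 3 of 14 alternatives (no filter, and without floxed replicate 1 or 2).

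**Figure D5:**
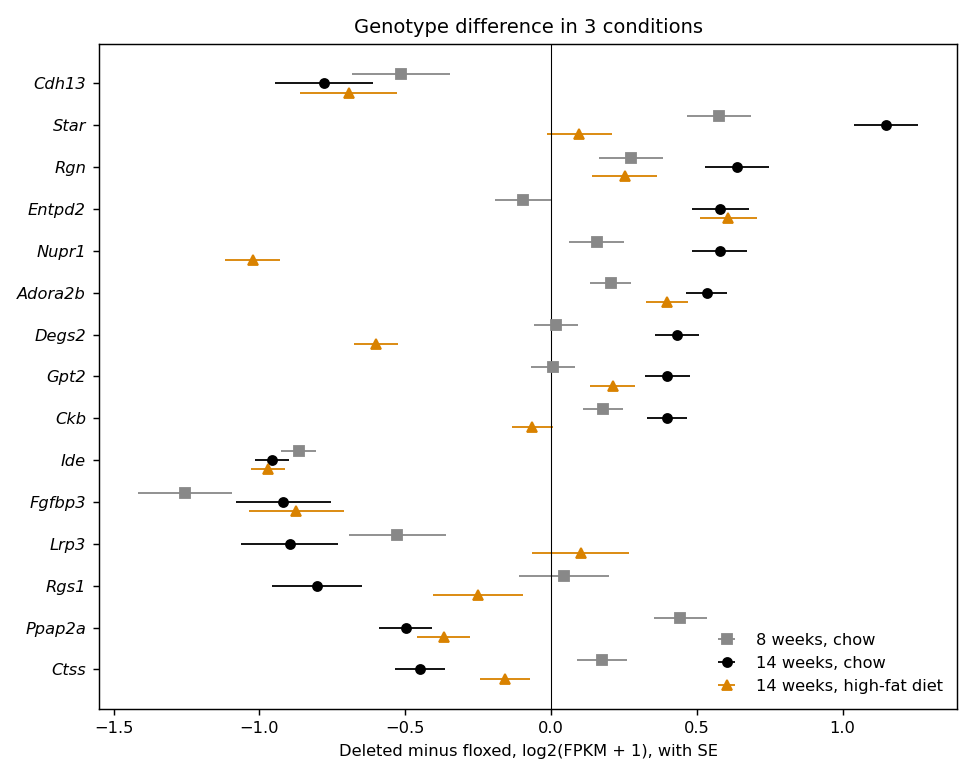
Difference between deleted and floxed islets on the log2(FPKM + 1) scale (x axis, with SE from the model) for Cdh13 and the 14 called genes at 8 weeks on chow (grey squares), 14 weeks on chow (black circles) and 14 weeks on the high-fat diet (orange triangles), each over 3 libraries a side. Ide runs from -0.97 to -0.87 over the 3 conditions and Fgfbp3 from -1.26 (8 weeks) to -0.87 (high-fat diet). Nupr1 and Degs2 change sign on the high-fat diet, and Ppap2a changes sign at 8 weeks.

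Of the 14 genes, 3 were also called in the same direction at 8 weeks (Ide, Fgfbp3 and Star), where 67 of all tested genes were called (0.548%). On the high-fat diet 5 were called in the same direction (Ide, Fgfbp3, Adora2b, Entpd2 and Ppap2a), where 1312 genes were called (10.7%). Adora2b was at 0.20 at 8 weeks and at 0.40 on the high-fat diet, and neither interaction passed for it (adjusted p = 0.219 and 0.542). Entpd2 was at 0.61 on the high-fat diet, close to its value on chow.

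The positions of the called genes in mm10 place them on 10 chromosomes, with Ide and Fgfbp3 the only close pair. Nupr1 spans 126623249 to 126630861 and Lrp3 35200027 to 35215498 on chromosome 7, and Star spans 25806555 to 25815982 and Gpt2 85492576 to 85527560 on chromosome 8, which also holds Cdh13. Degs2 (108678711 to 108702315) and Ckb (111669361 to 111672338) both lie on chromosome 12. Adora2b lies on chromosome 11 from 62248984 to 62266453. Because the library preparation did not mark the strand, reads cannot be assigned by strand where exons of different genes overlap. The spans of 6 of the 14 overlap another annotated gene, and overlap of their exons was not examined. Of these partners, Npdc1 beside Entpd2, Evl beside Degs2 and Skiv2l2 beside Ppap2a were tested, at 0.03, 0.12 and -0.07.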

How the data were processed

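RNA was measured in isolated islets in 18 libraries (3 in each of 6 groups). Per the labels, SMART-Seq HT cDNA went into Nextera libraries, which carry no strand information. The authors deposited gene-level FPKM for each library. The submitters' processing notes name Cufflinks 2.2.1, TopHat2 2.0.13, SAMtools 0.1.19 and Bowtie2 2.2.3 for the build mm10. No header states the unit, so FPKM was inferred from the use of Cufflinks and the values themselves. Annotation and filters: not given in the sources used here. Depth in fragments is not known. The value of 1 fragment relative to floxed replicate 1, judged from values under 0.3 FPKM, was 0.966 to 1.21 over the 6 libraries.

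Of 24346 symbols, the 12234 with at least 1 FPKM in at least 3 libraries were kept. Here log2(FPKM + 1), a scale that understates changes of low genes, was fitted in R 4.3.3 by limma 3.58.1 (with statmod 1.5.0) as 6 group means over 18 libraries, with trended, robust variances. Genes were called at a Benjamini-Hochberg adjusted p below 0.05, adjusted over the whole tested set. The code was tested on simulated data. The 34 gene lists and the members were chosen with earlier results of these data known, and lists were described by counts and medians without a test. Named were Cdh13, every called gene, the 10 uncalled genes with the smallest p whose groups did not overlap, 5 islet hormone genes, the tested genes between Fgfbp3 and Ide, and members from among the 4 smallest p of each list, of which 1 is not reported here. The list members Cyp11a1, Nr5a1 and Adipor1 were chosen after their values were seen. Positions are from GENCODE vM21 and promoters from RefSeq. The alternatives changed the pseudocount (0.1), the filter (none, or a mean of 5 FPKM or more), the scaling (quantile or median-ratio), the weights (by sample quality), the libraries fitted (the 6 alone), the covariates (a replicate block, or acinar markers), or dropped 1 of the 6 libraries, the remaining pair being assumed as variable as the other groups. Other software was matplotlib 3.10.9, pandas 2.3.3, numpy 2.4.6 and python 3.11.15.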

Additional observations from a re-analysis of the deposited data

Results flagged for a closer look

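The genotype difference at 14 weeks on chow minus that at 8 weeks, tested as an interaction in limma, passed for 7 of the genes named. It was 0.68 on the log2 scale for Entpd2 (adjusted p = 0.0471), -0.94 for Ppap2a (0.00323), -0.63 for Ctss (0.0428), -0.94 for H2-Aa (0.0120) and -1.04 for Ctla2a, a cysteine protease inhibitor gene (0.0131). For Arntl, which encodes the clock factor BMAL1, it was -1.05 (adjusted p = 0.0131), and for the phosphatase gene Dusp1 -0.50 (0.0471). In each of the 7 except Entpd2 the difference at 14 weeks was negative and that at 8 weeks positive. Of 14 alternatives each, the call was lost in 7 for Entpd2, 5 for Ctss, 6 for Dusp1 (no filter, and any library but deleted replicate 2 left out, adjusted p up to 0.122) and 1 each for H2-Aa, Ctla2a and Arntl (no filter, adjusted p = 0.0608).

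The genotype difference on chow minus that on the high-fat diet at 14 weeks passed for 15 of the genes named. Among those higher in deleted islets on chow it was 1.05 for Star (adjusted p = 8.17e-04), 1.6 for Nupr1 (1.11e-06), 1.03 for Degs2 (1.50e-05), 0.46 for Ckb (0.0106), 0.56 for Abhd6 (0.00388), 0.55 for Phgdh (0.00888), 0.58 for Ddit3 (0.0177), 0.28 for Entpd3 (0.0410) and 1.22 for Gc (1.11e-06), an alpha cell marker gene that encodes the vitamin D binding protein. It was -0.36 for Enpp2 (adjusted p = 0.0429), whose difference on the high-fat diet was the larger, at 0.69. Among those lower on chow it was -0.998 for Lrp3 (adjusted p = 0.0217), -0.96 for Rcor1 (0.0366), -0.56 for 1700086L19Rik (0.00405), -0.96 for Gcg (0.00405) and -1.23 for Sst (4.69e-05). Gcg and Sst were at 0.71 and 0.85 on the high-fat diet, where both were called higher (adjusted p = 8.50e-04 and 1.84e-05). With quantile normalization, which sets values by rank alone, the interaction for Gcg was -0.36 and did not pass (adjusted p = 0.546). Of 14 alternatives each, the call was lost in 8 for Entpd3 (quantile normalization, the replicate block, and any of the 6 libraries left out), 7 for Enpp2 (no filter, the acinar covariate, and any library but floxed replicate 3 left out), 6 for Rcor1 (no filter, the replicate block, and without floxed replicate 1 or 2 or deleted replicate 1 or 3) and 3 for Lrp3.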

How the results depend on the processing

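The labels give the groups the same replicate numbers, and nothing says that a number marks a shared animal, litter or day. Deviations of same-numbered libraries correlated at -0.12, -0.16 and -0.07, so the numbers were not taken as pairs. With the replicate number as a block, 11 genes were called (7 higher, 4 lower), 10 of them among the 14, and Ppap2a, Ctss, Rgs1 and Gpt2 did not pass.

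The call count depended on the model. It was 25 (13 higher, 12 lower, 12 of the 14 among them) with a mean of at least 5 FPKM, 114 (36 higher, 78 lower, all 14 among them) with sample quality weights, and 2 (1 higher, 1 lower) on the 6 libraries alone. The filter on the mean removed Fgfbp3 and Rgs1, so these genes were not tested there. Genes called lower numbered 3 with no filter, 10 with quantile normalization and 12 with the acinar covariate. The count ran from 3 to 11 with 1 library left out (2 to 6 higher, 1 to 7 lower): 3 without floxed replicate 2, 7 without floxed replicate 3 or deleted replicate 3, and 9 without deleted replicate 1 or 2. The interaction with age had 3 calls with no filter, 182 with weights, 46 with the acinar covariate and 7 to 28 with 1 library left out (8, 12 and 7 without floxed replicate 2, floxed replicate 3 and deleted replicate 3). The interaction with diet had 778 with weights and 268 to 406 with 1 library left out (268 and 278 without floxed replicates 1 and 2). Neither interaction could be fitted on the 6 libraries alone. Cdh13 was at -0.77 with weights (adjusted p = 0.0250).

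Medians moved as follows. The macrophage median was -0.46 with a pseudocount of 0.1 and -0.29 both with no filter and with a mean of at least 5 FPKM. With the pseudocount of 0.1 the Notch median was -0.35 and the immediate early median -0.25. With no filter the cathepsin median was -0.11 and the nucleotide median 0.0045. With a mean of at least 5 FPKM the cathepsin median was -0.12, the steroid median 0.035, the inflammatory median -0.063 and the clock median 0.058. With weights the endothelial median was -0.28, the adiponectin median -0.063, the alpha cell median -0.075 and the inflammatory median -0.11. With 1 library left out, medians ran from -0.36 to -0.28 (endothelial), 0.071 to 0.17 (nucleotide), -0.063 to 0.0042 (adiponectin), -0.30 to -0.12 (inflammatory), -0.32 to -0.22 (Notch) and 0.033 to 0.11 (clock).

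Cpeb3 changed sign with quantile normalization (0.023) and without deleted replicate 1 (range with 1 library left out -0.031 to 0.0013). Ins2 changed sign without floxed replicate 1 and without deleted replicate 2 (range -0.069 to 0.12). Ins1 (range -0.15 to 0.0043) and Ppy (range -0.90 to 0.069) did so without deleted replicate 3. None of these 4 was called. The cause of these sign changes was not tested. Under quantile normalization, which gives genes of equal rank the same value in every library, Gcg was at 0. Gcg lay below Ins2 and above Ins1 in every library compared, so this 0 follows from its rank and does not measure its level. Depth in fragments is not known, and genes near 1 FPKM, Cdh13 among them, are the least precise.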

Other observations

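Notch pathway genes, which carry signals between neighbouring cells and shape blood vessels, had 0 of 12 tested genes called. The deleted group lay below without overlap for 8 and above for 1 (7.36% and 6.25% of all tested genes), and the median difference was -0.26. Hey1, a Notch target in endothelial cells, measured 3.06, 3.24 and 3.32 FPKM in floxed and 1.98, 1.85 and 1.05 FPKM in deleted islets (limma adjusted p = 0.108), and the ligand gene Dll4 was at -0.37 (adjusted p = 0.315). The endothelial markers had a median of -0.34 in the same libraries, and their part in these values was not tested.

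Immediate early genes, induced within minutes of a stimulus, had 0 of 18 called, 5 below and 1 above without overlap (7.36% and 6.25% of all tested genes), and a median of -0.19. Dusp1 measured 29.6, 29.8 and 30.4 FPKM in floxed and 22.8, 25.8 and 24.3 FPKM in deleted islets (adjusted p = 0.108). Clock genes had 0 of 18 called and a median of 0.09, with 2 genes on each side without overlap. Arntl, the activator of the clock, measured 7.49, 8.45 and 8.48 FPKM in floxed and 5.44, 5.42 and 6.26 FPKM in deleted islets (log2 difference -0.45, adjusted p = 0.191), and was at 0.61 at 8 weeks (adjusted p = 0.0292).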
